A study of Mus musculus with 2 samples.

Results

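A splice junction is the record of a read that skips an intron and joins the ends of the exons on either side. The junctions described here skip at least 100 kb of genome (100000 nt) and match an annotated intron, that is, the gap between adjacent exons of a transcript in the Ensembl release 65 annotation on the mouse build mm9. They numbered 1251, of 281192 junctions of that span and 1302067 junctions in all, and lay in 717 host genes, of which 703 had a gene symbol. The span of the 1251 introns ran from 100004 to 496721 nt, with a median of 143385 nt and quartiles of 118066 and 191508 nt.

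The tissue was the central nervous system of mouse embryos at day 14, and the study had a single group of 2 biological replicates, without a treated or mutant arm. Each replicate was a pool of male and female littermates, both filed under one donor identifier. Poly(A)+ RNA was sequenced from stranded, paired-end libraries. The junction table gives split reads (reads that cross a junction) in 2 fields, which no label ties to the numbered replicates, so they are called field 1 and field 2.

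Introns are removed from the nascent transcript after RNA polymerase has passed their 3′ end, and for introns of this length that passage alone is long compared with the copying of a typical gene. Genes with very long introns are frequent among those that neurons use for adhesion, synapse building and excitability. In such genes a long intron often separates an early, alternative first exon from the shared body of the gene, and some long introns are known to be removed in steps. A junction read reports the mature outcome: both exons joined, whichever way the intron was removed.

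The spliced sequence across a junction shows what was joined. For the junctions below, the last 15 bases of the upstream exon are in lower case and the first 15 bases of the downstream exon in capitals, 5′ to 3′ on the coding strand, read from the GENCODE M21 transcript of the same identifier on mm10. Spans are those of the mm9 junction table. The first set holds some of the longest matched junctions and some of those with the most reads. All are coding on both sides.
Kcnd2 496721 nt: catgacaacactgggGTATGGCGACATGGT
Macrod2 491062 nt: acctccctgcaaagtATGTCATCCATACTG
Tenm2 479339 nt: cggatgacgacaatgGTCGTCCCATTCCAC
Ctnna2 461237 nt: gagtacatgaataacACTGGAAGGAAAGAG
Ctnna2 105224 nt: atgtgcggaagcaagGTGAGACAATGCGGA
Dner 109831 nt: ggcacctattgtcagTTTGTTGCAGATCCT
Gpc3 153662 nt: ctgcggttttccaagAGGCCTTTGAAATTG
Msi2 110000 nt: gagcagtttggcaagGTAGAGGATGCGATG
Ntm 232301 nt: gagcgccaccctcagGTGCACAATTGACAA

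The second set shows pairs of related genes whose long introns interrupt the coding sequence at the same place, which can be seen from the matching bases on both sides of the junction.
Kcnd2 496721 nt: catgacaacactgggGTATGGCGACATGGT
Kcnd3 198689 nt: catgactacactgggATATGGAGACATGGT
Opcml 270721 nt: gagcgccaccctcagGTGTACCATAGATGA
Ntm 232301 nt: gagcgccaccctcagGTGCACAATTGACAA
Grm8 144216 nt: ttaagactttttaagATACCTCAGATTAGC
Grm7 267940 nt: ttgaggcttttccagATACCTCAGATTAGT
Fgf14 148495 nt: tacctctacccatcaGAACTTTTTACCCCT
Fgf12 183280 nt: tatctctacagctcaGATGTTTTTACCCCA
Robo1 162177 nt: cgctggaggtagctaTACTACGGGATGACT
Robo2 305613 nt: ctctggaagtggcatTATTGCGAGATGACT

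The junction table held 52713700 split reads in field 1 and 71600793 in field 2, of which 50285422 and 68319905 lay on annotated introns. Neuronal and progenitor markers were abundant in both replicates (Tubb3, a neuronal tubulin, at 1820 and 2133 TPM, and Vim, an intermediate filament of progenitors, at 913 and 961 TPM). Markers of other tissues were higher in replicate 1: the muscle genes Myh3 and Ckm stood at 32.1 and 16.4 TPM against 0.34 and 0.06 TPM, the cartilage gene Col2a1 at 417 against 73.5 TPM and the skin gene Krt5 at 48.0 against 4.61 TPM. Which field this replicate is could not be read from the labels.

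The long junctions took a small share of the reads. They held 94599 reads in field 1 and 125879 in field 2, which is 0.188% and 0.184% of all reads on annotated introns, while they made up 0.652% of the annotated introns that were listed. The median long junction had 31 reads in field 1 and 37 in field 2, against 56 and 70 for the 10904 listed introns under 100 kb of the same genes, whose median span was 4510.5 nt. The 10th percentile was 2 reads in each field and the 90th percentile 188 and 262, so they varied widely. In all, 1141 of the 1251 had reads in both fields, 700 had at least 20 reads in each field, 246 had at least 100 in each, and 57 rested on 1 read. The library protocol carried no molecular identifiers, so reads are not independent molecules, and the limit given for a count of 0 covers counting error only. The 717 host genes had a median of 10.2 TPM in replicate 1 and 9.38 TPM in replicate 2 over the 705 with a value on mm10, and 647 of these were at 1 TPM or more in both. The 13951 other genes with 3 or more listed introns had medians of 16.7 and 16.1 TPM, per length above those of the hosts. The hosts were not held to a minimum of listed introns, so the sets were not chosen alike.

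The 15 junctions with the most reads lay in genes of neuronal adhesion, RNA binding and signalling. Celf4, which encodes a neuronal RNA-binding protein of the CELF family, had the most: 1387 reads in field 1 and 1822 in field 2 over its second intron of 141657 nt. Dner, a Notch-related neuronal surface protein, had 1327 and 1605 reads over its first intron (chr1:84582197-84692027). Cdh2, or N-cadherin, had 978 and 1593 over its second intron of 124009 nt. In these genes the long intron was read about as often as the shorter ones, whose medians were 1525.5 and 2149.5 reads in Celf4, 1258 and 1804 in Dner, and 1135.5 and 1811.5 in Cdh2.

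Ctnna2, the neuronal alpha-catenin that ties cadherins to actin, appeared with a pair of introns: the seventh, of 461237 nt (chr6:77093938-77555174), had 895 and 1395 reads, and the third, of 105224 nt, had 824 and 1148. The median of the shorter Ctnna2 introns was 642 and 924 reads, so both long introns lay above it in both fields. A further internal Ctnna2 intron of 133029 nt had 651 and 896 reads, at about that median. Msi2, a Musashi RNA-binding protein, also appeared with a pair of introns, of 110000 nt (810 and 1139 reads) and 170102 nt (684 and 917 reads), both above the gene's median of 335 and 435. Ntm, the IgLON adhesion protein neurotrimin, had 812 and 854 reads over its 232301 nt intron (chr9:28986840-29219140) against a median of 169.5 and 217.

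Gpc3, a glypican that carries heparan sulfate at the cell surface, was the only one of those named here with more reads in field 1 than in field 2, at 1467 and 718. Its shorter introns followed the same order, with medians of 1202.5 and 576.5. Others among the 15 were Celf2 (640 and 1249 reads), Cmip (831 and 1047), the microtubule-associated kinase gene Dclk1 (764 and 904), the RNA demethylase gene Fto (710 and 880) and Gm20498, a predicted gene (634 and 925). The Gm20498 junction ends on the same base as a junction of Cox16, which had 4 and 10 reads, so the gene models overlap and the host of these reads is uncertain. The plot of these junctions sets each beside the median of the shorter introns of its gene.

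**Figure D1:**
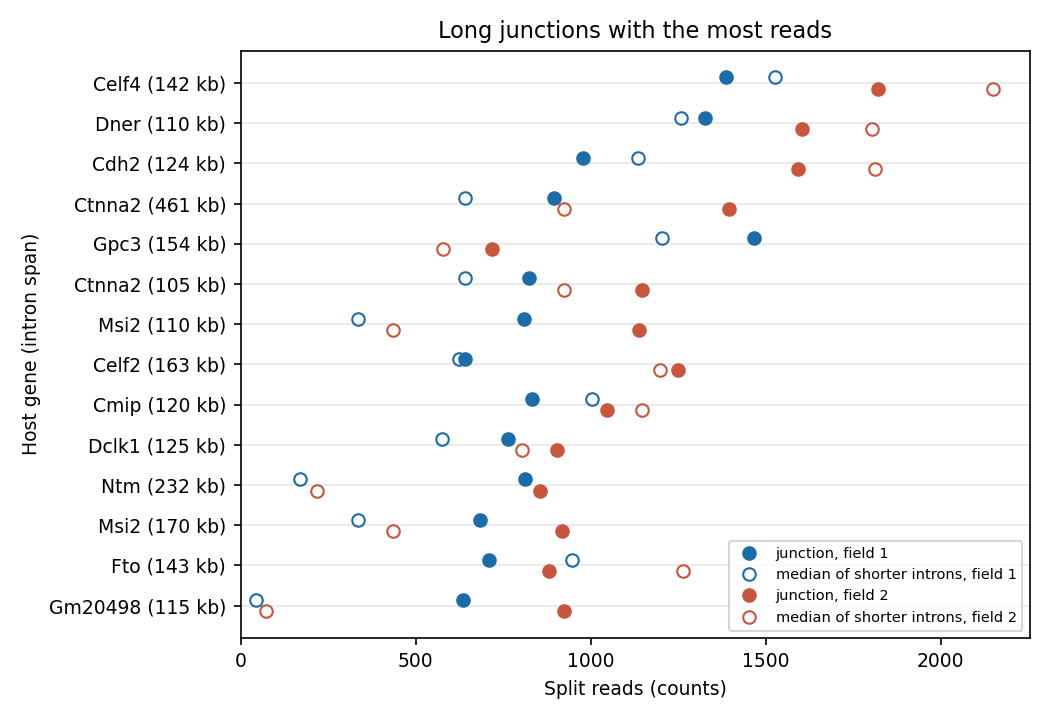
Split reads (x axis, counts) of 14 of the 15 long junctions with the most reads, by host gene and span, in field 1 (blue) and field 2 (red); filled points are the junction and open points the median of the introns under 100 kb of the same gene. Ntm, both Msi2 junctions and Gm20498 lie well to the right of their open points in both fields, and Gpc3 alone has its field 1 point to the right of its field 2 point.

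The longest junctions had fewer reads, but some kept pace with their genes. Kcnd2 encodes a potassium channel subunit of the A-type current, and its first intron, of 496721 nt (chr6:21167414-21664134), was the longest matched junction. It had 147 reads in field 1 and 214 in field 2, against a median of 127 and 196.5 over the shorter Kcnd2 introns, and took 98.0% and 99.5% of the reads at its 5′ splice site and all reads at its 3′ splice site. Macrod2, which encodes an enzyme that removes ADP-ribose, followed with 491062 nt and 33 and 75 reads, against a median of 27 and 50. Macrod2 held 6 of the long junctions, and 5 of them, introns of the same 17-intron transcript that span 198943 to 491062 nt, had between 28 and 94 reads in a field. Tenm2, a teneurin adhesion receptor, had 58 and 57 reads over 479339 nt. Dpp6, an auxiliary subunit of the same potassium channels as Kcnd2, had 61 and 69 reads over 477466 nt. Pde4d, a cyclic AMP phosphodiesterase, had 9 reads and 1 read over 479455 nt.

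Just inside the limit of 100000 nt stood introns of Slc24a2 (100004 nt, 11 and 4 reads), Cox16 (100079 nt, 4 and 10), Slc8a3 (100090 nt, 56 and 58), Chchd6 (100113 nt, 540 and 845) and Bach2 (100130 nt, 107 and 182). Just outside it stood Hivep2 (99885 nt, 3 and 11 reads), Tln2 (99624 nt, 22 and 17), Zfp521 (99490 nt, 714 and 789), Ssbp2 (99423 nt, 236 and 374) and Rtn1 (99381 nt, 204 and 231). Reads ranged over similar values on both sides of the limit.

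Most annotated long introns were seen in use. The annotation held 1738 introns of at least 100000 nt in 918 genes, and 1251 of them, 72.0%, were listed with at least 1 read (95% exact binomial interval 69.8 to 74.1%, which treats introns as independent although some share a gene). In field 1 alone the share was 68.6% and in field 2 alone 69.0%. Among shorter annotated introns 190487 of 241594 were listed, 78.8%. Restricted to genes at 1 RPKM or more in the authors' gene table, the shares were 80.2% of 891 long introns and 90.8% of 139839 shorter ones. Of the 487 long introns without a listed junction, 242 lay in a gene that had another long junction, and 201 of the 918 genes had none listed.

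The share changed little with span up to 500000 nt and then dropped to 0. It was 74.7% between 100000 and 150000 nt, 70.8% between 150000 and 200000 nt, 74.3% between 200000 and 300000 nt, 73.7% between 300000 and 400000 nt, and 72.7% (24 of 33) between 400000 and 500000 nt. None of the 39 annotated introns of 500000 nt or more was listed (95% exact binomial interval 0 to 9.03%), although 18 of them were in genes at 1 RPKM or more. Among these were introns of expressed neuronal genes. The adhesion gene Cadm2 has annotated introns of 835283 and 737288 nt with no listed junction, while the median of its shorter introns was 105.5 and 149.5 reads. The ion channel gene Asic2 has one of 996015 nt, with a median of 93 and 145.5 reads over its shorter introns. Junctions that match no annotated intron thinned out at the same span, from 24738 between 400000 and 500000 nt to 1452 between 500000 and 600000 nt, but reached 2264343 nt. Whether the processing behind the table limited the span was not tested.

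**Figure D2:**
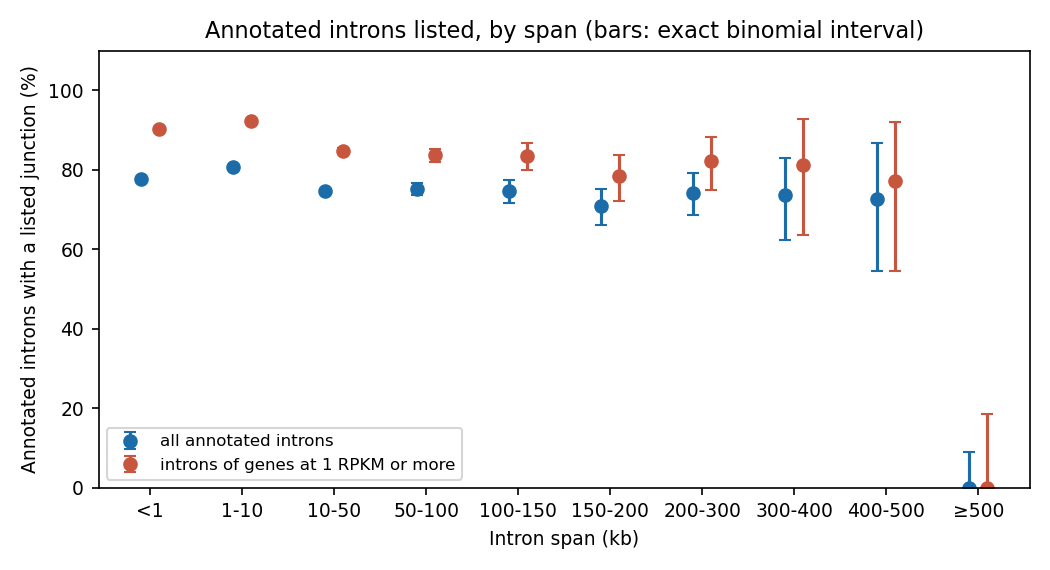
Share of annotated introns with a listed junction (y axis, percent) by intron span (x axis, kb), for all genes (blue) and for genes at 1 RPKM or more (red); bars are 95% exact binomial intervals. The share stays near 70 to 75% of all introns from 100 to 500 kb and is 0 of 39 at 500 kb or more.

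Within their own genes, the long introns were read less often than the shorter ones. For each long junction the reads were set against the median of the other listed introns under 100 kb of the host gene, as log2((reads + 1)/(median + 1)) in each field. For 1090 members the host median was at least 10 reads in the mean of the fields. Their median log2 ratio was -0.53 in each field (mean of the fields -0.53 ± 0.0025, SD, n = 2 fields), with quartiles of -1.88 and 0.23. The same ratio had a median of -0.01 over 10140 shorter introns of the host genes, which follows largely from their serving as each other's reference. In both fields 685 of the 1090 lay below their host median and 285 above it. The long introns that lay at least 2-fold below numbered 368 (33.8%), where 18.5% of all annotated introns of genes with 3 or more listed introns and 17.9% of the shorter introns of the host genes did so. At least 2-fold above lay 73 (6.70%), where 10.5% of all annotated introns did.

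Among the long junctions the ratio had almost no relation to span. Its Spearman correlation with the ratio over the 1090 junctions, which share 2 libraries and in part their genes, was -0.0059 and -0.00017. Across the wider range of spans it did vary: its medians over introns of the host genes were 0.12 and 0.11 under 1000 nt, 0.03 in both fields from 1000 to 10000 nt, -0.10 and -0.11 from 10000 to 50000 nt, -0.39 and -0.42 from 50000 to 100000 nt, and -0.47 and -0.51 from 100000 to 150000 nt. Introns of 300000 nt or more stood at -0.36 and -0.45 (66 junctions). These medians pool first and other introns. Introns first in every transcript made up 130 of 1579 under 1000 nt and 249 of 591 from 100000 to 150000 nt. Their medians went the other way, from -2.52 and -2.61 to -0.98 and -0.97. Internal introns went from 0.17 in both fields to -0.21 and -0.23. How much of the change with span follows from this mix was not tested. The reads of a long junction and its host median had a Spearman correlation of 0.54 in field 1 and 0.56 in field 2, over the same 1090 junctions.

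**Figure D3:**
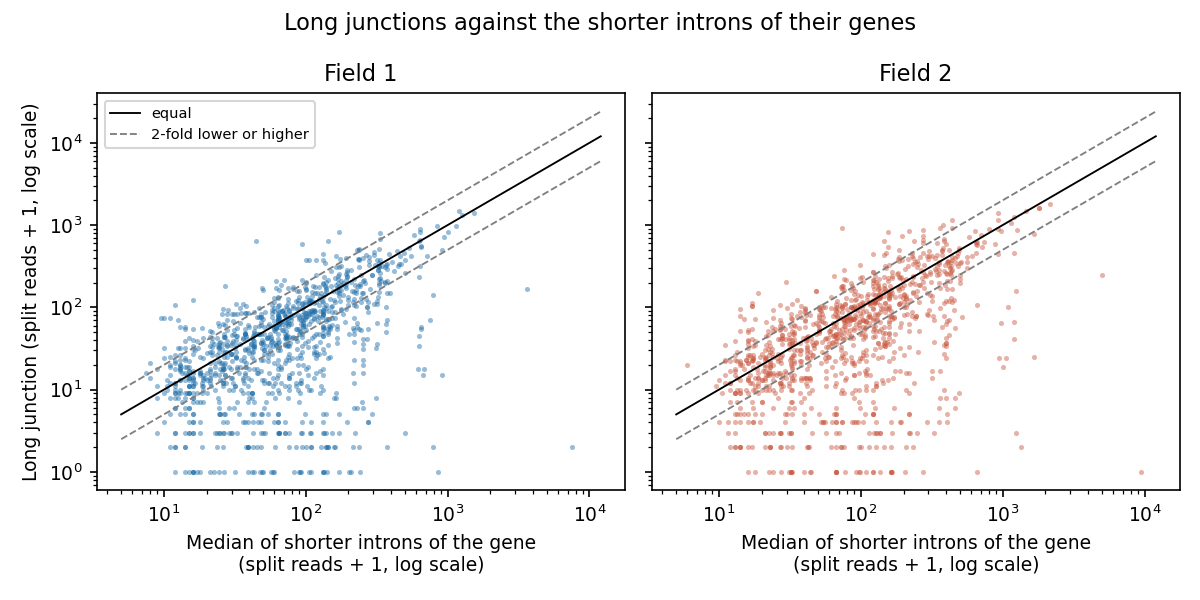
Split reads of the 1090 long junctions (y axis, reads + 1, log scale) against the median of the introns under 100 kb of the same gene (x axis, reads + 1, log scale), in field 1 (left) and field 2 (right); the solid line marks equality and the dashed lines a 2-fold difference. A dense band lies along or just below equality, and the lower right holds junctions with a few reads in well-read genes.

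The place of an intron in its gene went with its ratio. Of the 1251 long introns 511 (40.8%) were the first intron of every transcript that holds them, against 7.60% of the other listed introns of the same genes. A further 89 were first in some transcripts, 506 (40.4%) were internal and 145 were last in some. First introns had the lowest ratios: -0.89 and -0.83 over 452 long introns that were first in every transcript, of which 42.3% lay at least 2-fold below the host median in both fields. Shorter first introns of the host genes were lower still, at -1.96 and -1.93 (743 introns, 62.0%). Internal long introns had a median of -0.36 and -0.32 (443 introns, 28.2%), where shorter internal introns stood at 0.02 in both fields (7444 introns, 13.2%). Long introns that were last in some transcript had -0.40 and -0.35, and those first in some transcripts had 0.03 and -0.09. As sets, long first introns therefore lay above shorter first introns of the same genes, while long internal introns lay below shorter internal ones. Over all genes, shorter introns first in every transcript stood at -1.12 and -1.10 (19377 introns, 49.4%), nearer to the long first introns.

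A splice site can be joined to more than one partner. The share of the site's reads that went to the long junction was taken at sites with at least 20 reads in each field. At the 5′ splice site, or donor, the long junctions had a median share of 96.9% and 97.2% (824 junctions), and 546 of these (66.3%) took at least 90% in both fields, against 82.9% of the shorter introns of the host genes. At the 3′ splice site, or acceptor, the median was 95.0% in both fields (894 junctions), and 488 (54.6%) took at least 90%, against 81.6%. Under 50% in both fields lay 128 at the donor (15.5%, where 9.22% of the shorter host introns did) and 240 at the acceptor (26.8%, where 10.6% did). The median share of the shorter host introns was 100% at both sites. The histograms of both shares have a tall bar at 90 to 100% and a smaller one at 0 to 10%, which is higher for the acceptor.

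**Figure D4:**
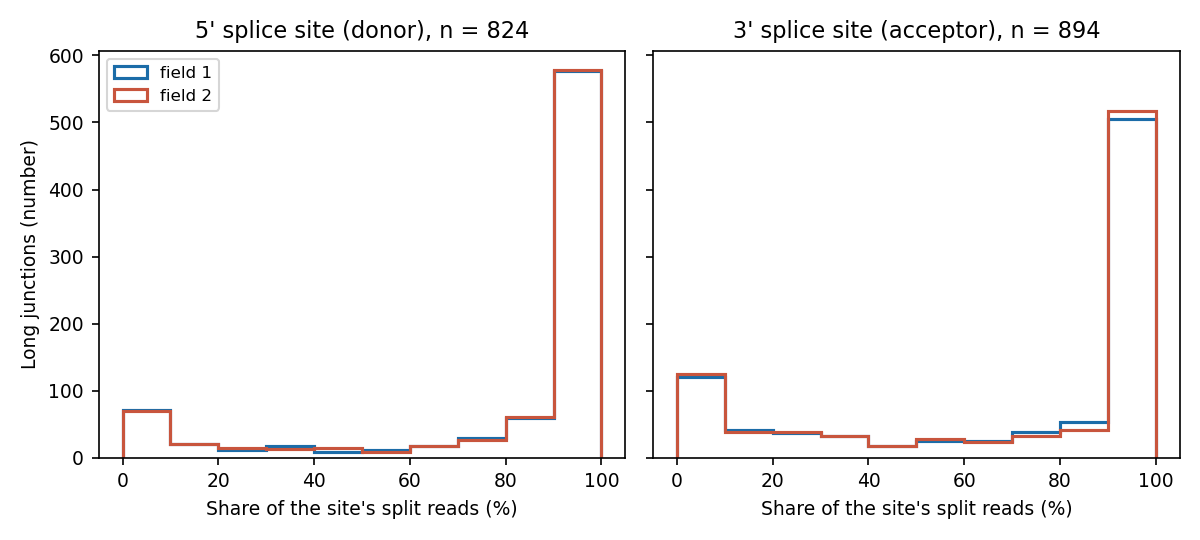
Number of long junctions (y axis) by their share of the split reads at the 5′ splice site (left, 824 junctions) and at the 3′ splice site (right, 894 junctions), in percent (x axis), for field 1 (blue) and field 2 (red). Most junctions take nearly all reads of their site, and more of them take under 10% at the 3′ than at the 5′ splice site.

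The rest of the reads mostly went to shorter annotated introns. Reads were summed over the long junctions, so a site with several long junctions counts several times. The annotated introns counted beside a junction can then be long junctions too. At the acceptors, 59.3% and 58.6% of the summed reads were on the long junction itself. Shorter annotated introns that end at the same site took 29.97% and 29.94%. Another 5.19% and 5.62% were on shorter junctions outside the annotation, and 3.82% and 4.16% on longer annotated introns. At the donors, 82.6% and 82.0% were on the long junction and 11.4% and 11.6% on shorter annotated introns. A long intron thus more often shared its downstream exon with another upstream exon than the reverse.

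Dpp6 shows such a shared acceptor. Its introns of 477466, 332941 and 120393 nt each start at a different first exon and all end at the same base, where the 3 took nearly all of the 215 and 232 reads. The longest took 28.4% and 29.7% of them, the next 22.8% and 19.4%, and the shortest 46.5% and 50.9%. Each lay below the host median of 365 and 414.5 reads, with log2 ratios between -3.18 and -1.80. The 3 first exons thus divided nearly all of the listed reads at this acceptor, and the order of the 3 was the same in both fields. A further annotated Dpp6 intron, of 564636 nt, ends at the same base and had no listed junction. No annotated intron of that length or longer was listed in any gene, so whether this intron was used could not be judged.

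The protocadherin-alpha cluster, filed under Pcdha11 on chromosome 18, shows the same form with more members. Protocadherin-alpha proteins are neuronal adhesion molecules made by joining 1 of many variable first exons to a shared set of constant exons. Its 7 long junctions, of 133531 to 223482 nt, all ended at the first constant exon, where 375 and 529 reads were listed in all. They had from 5 and 7 reads (223482 nt) to 40 and 62 reads (155794 nt), which is 1.33% and 1.32% to 10.7% and 11.7% of the site. Each took at least 88.2% of the reads at its own donor in both fields. These 7 variable exons were thus all in use in the pooled tissue, and no single long junction held most of the reads.

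Celf2, another CELF RNA-binding protein, had 640 and 1249 reads over its 163238 nt first intron, which took 63.5% and 61.9% of its acceptor, and 230 and 463 over another first intron of 150742 nt into the same acceptor (22.8% and 23.0%). Rbfox1, a neuronal splicing regulator, had 375 and 576 reads over a first intron of 415062 nt, which took 43.8% and 45.9% of its acceptor. Junctions outside the annotation ended there too, the most read of them with 249 and 357 reads over 184285 nt. The annotated Rbfox1 intron of 154225 nt into this acceptor had 2 reads in field 1 and 0 in field 2. In Rbfox1, junctions outside the annotation were thus read more often than this annotated one.

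The ratio was also taken over introns with at least 90% of the reads at both of their splice sites in both fields, each against at least 2 other such introns of its gene. For these 380 long introns the median log2 ratio was -0.14 and -0.17, nearer to 0 than over all members. It was 0 in both fields for 6129 shorter introns chosen in the same way, which follows largely from their serving as each other's reference. At least 2-fold below lay 29 of the 380 (7.63%, where 5.11% of the shorter ones did) and at least 2-fold above 12 (3.16%, where 5.74% did). First in every transcript were 128 of them, at -0.24 and -0.22, against -0.45 and -0.37 for 117 shorter first introns. Internal were 180, at -0.13 and -0.11, against -0.01 in both fields. This choice uses the reads of the junction itself, and all 380 had at least 20 reads in each field, so hardly read introns are left out by construction. The smaller difference among these introns can therefore not be set down to alternative partners. Single junctions also moved with the reference introns, and the value against these introns is given for some of them.

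**Figure D5:**
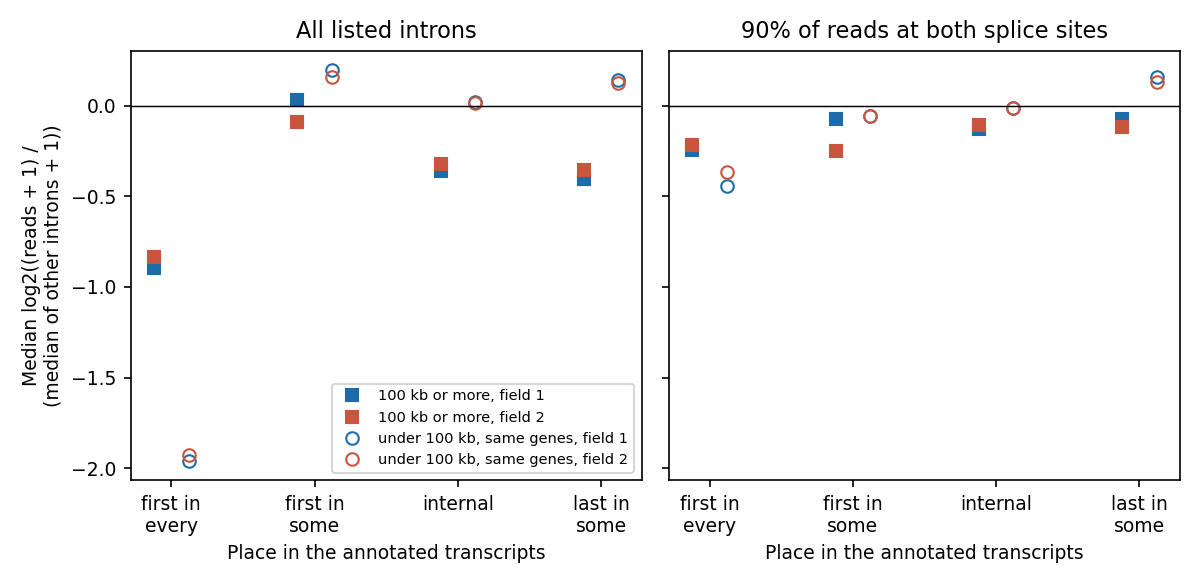
Median log2 ratio of an intron's reads to the median of the other introns of its gene (y axis) by place in the annotated transcripts (x axis), for introns of 100 kb or more (filled squares) and shorter introns of the same genes (open circles), in field 1 (blue) and field 2 (red); left, all listed introns, right, introns with at least 90% of the reads at both splice sites. Long internal introns lie below 0 in both panels, nearer to it on the right (-0.13 and -0.11) than on the left (-0.36 and -0.32), and introns that are first in every transcript are lowest on the left.

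The lowest ratios belonged to annotated introns that were hardly used in well-read genes. Rtn1, a reticulon abundant in neurons, had 1 read in field 1 and 0 in field 2 over 184771 nt, against a median of 7471 and 9423.5 reads over its other introns. Nell2, a secreted neuronal protein, had 0 reads and 1 read over 153217 nt against 859 and 1349. Schip1 had 1 and 2 reads over 429566 nt against 791 and 1241, Rbfox1 its 2 and 0 reads against 503 and 654, and Cdh13 1 and 0 reads over 187592 nt against 238 and 275. A field with 0 reads allows up to 3. In each of these genes the reads ran through other introns. The lowest shares of a splice site were also among such introns. Dennd1a, an endocytosis gene, had 0 reads and 1 read over 105062 nt, which is 0.48% of its donor and 0.32% of its acceptor in field 2. Adgrl3, a latrophilin adhesion receptor, had 1 read and 0 reads over 155115 nt, at 0.29% and 0.47% of its sites in field 1. Rbms3, an RNA-binding protein gene, had 1 and 0 reads over 110842 nt (0.56% of the donor in field 1), while a first intron of 141608 nt, had 203 and 146 reads against a median of 138 and 121.

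The highest ratios were those of Gm20498 (634 and 925 reads against a median of 43.5 and 72.5), Ntng1 (122 and 150 against 15 and 18), Shank2 (105 and 95 against 11 and 13), Tshz2 (180 and 200 against 26 and 28.5) and Fam19a1 (73 and 102 against 9 and 16). Ntng1 encodes netrin-G1, an adhesion protein of axons, and its intron of 200053 nt is the first of its transcript. Shank2 is a scaffold of the excitatory synapse. For both genes the excess went with the reference. Against the introns with 90% of the reads at both sites the Ntng1 median was 144 and 164.5 (log2 ratio -0.24 and -0.13, 2 introns) and the Shank2 median 80 and 98 (0.39 and -0.04). Tshz2, a zinc finger gene with 2 other listed introns, gives a median that rests on few values.

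Grouped by what their genes encode, the long introns of receptors and channels kept closest to their genes in field 1, by the median ratio. In field 2 those of synaptic organisers did. The lists below hold 299 genes in 11 groups, and 485 of the 1251 junctions lay in a listed gene. The junction counts of the lists add up to more than that, so some junctions count in several lists. The lists were drawn up with earlier results of these data known. They are described only by counts and medians, beside the median of -0.53 and the 33.8% at least 2-fold below over all members. That share was 18.5% over all annotated introns of genes with 3 or more listed introns and 17.9% over shorter host introns. The place of the introns in their genes was not taken into account in the lists.

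Receptors and channels had 71 long junctions in 37 genes, and a median log2 ratio of 0.02 and 0.10, with 11 of 66 at least 2-fold below. Grik2, a kainate-type glutamate receptor subunit, had 581 and 828 reads over 107674 nt and 212 and 534 over 101009 nt, both above its median of 93 and 155. Gria4, an AMPA-type subunit, had 373 and 441 reads over 128802 nt against 100 and 121. Fgf13, an intracellular regulator of sodium channels, had 381 and 501 reads over 316173 nt against 174 and 186. This intron shared its donor with a junction of 435189 nt that matched no annotated intron exactly and had 80 and 117 reads. An annotated Fgf13 intron of 435188 nt had no listed junction, and whether these reads belong to it was not tested.

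Adhesion proteins came in 3 lists. Immunoglobulin-domain adhesion genes had 53 junctions in 23 genes, at -0.68 and -0.58, with 13 of 53 at least 2-fold below. Besides Ntm they included Negr1 (506 and 598 reads over 156512 nt, median 325 and 344.5), Cadm1 (461 and 835 over 257465 nt, median 491 and 633.5) and Ncam1 (416 and 590 over 228777 nt, median 719 and 888). This Negr1 intron lay above its gene's median in both fields, while another Negr1 intron of 152048 nt, with 199 and 321 reads, lay below it, as did Ncam1. The reference with 90% at both sites lowered the excess of Ntm, whose median was then 372.5 and 488.5, and put Cadm1 below its median of 640 and 850 in both fields.

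Cadherins and protocadherins had 32 junctions in 12 genes, at -0.20 and -0.26, with 3 of 26 at least 2-fold below. In Cdh13, the membrane-anchored T-cadherin, 5 of its 6 long junctions lay above the gene's median of 238 and 275 in both fields, with 310 to 515 reads in field 1 and 462 to 873 in field 2; the sixth was the intron with 1 read named above. Synaptic organisers, which span the synaptic cleft, had 66 junctions in 18 genes, at -0.37 and -0.04, with 12 of 54 at least 2-fold below. Nrxn3, a presynaptic neurexin, had 129 and 196 reads over 336713 nt and 104 and 123 over 443332 nt against 63 and 84.

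Axon guidance genes had 28 junctions in 18 genes, at -0.47 and -0.64, with 9 of 28 at least 2-fold below. The Slit receptor gene Robo2 had 374 and 501 reads over 305613 nt against 319 and 491.5, and its relative Robo1 had 261 and 455 over 162177 nt against 496 and 646. The ephrin receptor gene Ephb1 had 407 and 494 reads over its first intron of 130829 nt and 362 and 479 over an internal intron of 127747 nt, both above 278 and 370.5. Cytoskeleton and cell junction genes, Ctnna2 among them, had 46 junctions in 18 genes, at -0.36 and -0.52, with 10 of 35 at least 2-fold below. Parva, which links integrins to actin, had 395 and 373 reads over 116076 nt against 254 and 195.

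The regulators of transcription and RNA stood lowest. Transcription factors had 61 junctions in 27 genes, at -1.79 and -1.55, with 29 of 53 at least 2-fold below, and RNA-binding proteins had 21 in 10 genes, at -1.44 and -1.37, with 11 of 21. Single introns in these lists were well read all the same. Nfib, a nuclear factor I gene, had 424 and 908 reads over an internal intron of 114576 nt against 162 and 360, or against 431 and 764 over introns with 90% at both sites, and 7 and 7 over a first intron of 206745 nt. Mllt3, a component of the transcription elongation machinery, had 284 and 415 reads over 151375 nt against 208.5 and 290.5, but lay below the 336 and 533 of its introns with 90% at both sites (log2 ratio -0.24 and -0.36). Pbx3 had 551 and 626 reads over 146177 nt against 644.5 and 662. Sox5, a factor of neuronal and glial fate, had 12 and 32, 23 and 51, and 11 and 15 reads over its 3 long introns against 92 and 218.

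Synaptic scaffold and release genes had 51 junctions in 14 genes, at -1.09 and -1.02, with 25 of 51 at least 2-fold below. Syt1, the calcium sensor of transmitter release, had 285 and 311 reads over 140042 nt against 195 and 246, but lay below the 365.5 and 446.5 of its introns with 90% at both sites (log2 ratio -0.36 and -0.52). Erc2, a protein of the presynaptic active zone, had 156 and 180 reads over 130196 nt against 85.5 and 131. Dab1, the adaptor of Reelin signalling, had 153 and 274 over 126022 nt against 217 and 384, and its other 5 long introns had between 5 and 113 reads in a field. These lay below the gene's median, as did most long introns of Dlg2. Dlg2, a postsynaptic scaffold with 7 long junctions, had between 2 and 69 reads in field 1 and between 0 and 68 in field 2, against 63 and 108. Phosphodiesterases and kinases had 39 junctions in 15 genes, at -1.0 and -1.06, with 17 of 39. Prkce, a protein kinase C gene, had 198 and 215 reads over 184614 nt and 161 and 199 over 120698 nt, both above 99 and 120. In Pde4d, 1 first intron of 298047 nt had 90 and 163 reads, at its gene's median of 107 and 162, and 5 other long introns had between 0 and 9. Genes of large common fragile sites had 61 junctions in 13 genes, at -0.42 and -0.63, with 15 of 41. Auts2, a neurodevelopmental gene, had 291 and 357 reads over its first intron of 282378 nt against 373.5 and 434.5, or against 583.5 and 728 over introns with 90% at both sites. Exoc4, a subunit of the exocyst, had 150 and 271 reads over 137942 nt, close to its median of 171.5 and 273.

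Long junctions clustered in some genes: 452 hosts had 1, 142 had 2 and 123 had 3 or more. Ptprd, a receptor phosphatase that organises synapses, had the most, at 10. They spanned 102942 to 293130 nt and had from 44 and 47 to 194 and 327 reads, against a median of 132 and 158. The most read of them, of 102942 nt, lay above that median but below the 398.5 and 545.5 of the introns with 90% at both sites (log2 ratio -1.03 and -0.74). Lingo2 had 9, with up to 33 reads in field 1 and 56 in field 2, and Fhit, a large gene of a common fragile site, 8, with up to 29 and 23. In Cntnap2, a neurexin-related adhesion gene, 5 internal introns of 112765 to 275610 nt had 36 to 83 reads in field 1 and 42 to 117 in field 2 against 62.5 and 66.5. Each of the 5 took at least 98.7% of the reads at both of its sites. All 10 values lay within 2-fold of the medians.

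The 2 fields gave similar values for most long junctions. After scaling to the total junction reads, the median absolute log2 ratio between fields was 0.27 over the 756 junctions with at least 20 reads on average, against 0.22 over 137454 annotated introns. At least 2-fold apart were 30 of the 756 (3.97%), where 5.48% of all such introns were. Of these, 24 were higher in field 1, where 4.71% of all introns were, and 6 in field 2, where 0.768% were. The furthest apart towards field 1 were introns of Erg, an endothelial transcription factor (36 and 7 reads), the growth factor receptor gene Egfr (36 and 10) and the collagen gene Col25a1 (41 and 17). Towards field 2 they were Csmd1 (9 and 39 reads over 196523 nt), Cep128 (12 and 41) and Dmd, the dystrophin gene (10 and 32 over 195206 nt). In bulk tissue, fewer cells of a type and less RNA per cell cannot be told apart, and the part of the muscle, cartilage and skin RNA described above in these differences was not tested.

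The spliced sequences show where long introns fall in the transcript. Of the 1251 junctions 1151 (92.0%) matched a GENCODE M21 transcript of the same identifier by exon rank, span and lengths of the flanking exons. The length of a transcript's first or last exon was not compared. Of these, 833 (72.4%) interrupted the coding sequence and 205 (17.8%) lay before the start codon, against 90.5% and 4.41% of the shorter introns of the host genes. Junctions in the coding sequence had a median log2 ratio of -0.26 and -0.24, those before the start codon -1.69 and -1.42, and 106 in noncoding transcripts -2.04 and -2.05. The ratio was not taken by place for the shorter introns, so whether these differences are particular to long introns was not tested. Coding long introns fell after the first base of a codon in 43.8% of cases, between codons in 38.9% and after the second base in 17.3%, where the shorter introns had 35.1%, 43.7% and 21.2%. The bases at the exon ends were alike: the upstream exon ended in AG in 56.6% of both sets, and AG was followed by G in 26.7% of the long and 26.5% of the shorter ones.

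Some related genes carried long introns at the same place. Among the 833 coding junctions, 46 pairs in different genes matched in at least 22 of the 30 bases across the junction, and they took in 85 junctions of 73 genes. In all 46 pairs the intron cut the codon at the same base, which a match of this length across coding sequence largely fixes. Over all coding introns of the host genes, 124 long introns had such a counterpart in another host gene, and for 85 of them (68.5%) a counterpart was also at least 100000 nt long. Of the 1338 shorter introns with a counterpart, 56 (4.19%) had a long one. The search was confined to genes with a long junction, and was made after the data had been seen, so the shares are a description.

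The paired introns differed in span and in reads. Kcnd2 and Kcnd3, potassium channel subunits of the same family, matched in 27 of 30 bases. Their introns span 496721 nt (147 and 214 reads) and 198689 nt (104 and 110 reads), both with nearly all the reads of their sites. The IgLON genes Opcml and Ntm matched in 25, with 103 and 103 reads over 270721 nt and 812 and 854 over 232301 nt. The metabotropic glutamate receptor genes Grm8 and Grm7 matched in 25, with 51 and 47 reads over 144216 nt and 47 and 57 over 267940 nt. Opcml and Ntm thus differed most in reads among these pairs, and Grm8 and Grm7 least.

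Fgf14 and Fgf12, intracellular relatives of Fgf13, matched in 23 bases, with 50 and 58 reads over 148495 nt and 123 and 183 over 183280 nt. Robo1 and Robo2 matched in 22 bases, with more than 200 reads per field in both genes. Ctnna2 and its relative Ctnna3 matched in 24 bases at the 461237 nt intron, where Ctnna3 spans 397872 nt and had 2 and 1 reads. The closest matches were among the contactin-associated genes Cntnap5a, Cntnap5b and Cntnap5c, at 28 or 29 bases, where reads of near-identical copies could have been assigned to either gene.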

How the data were processed

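The authors' deposited junction table (mm9) gives the read count of each junction in 2 fields, which no label matches to the numbered replicates. The deposited gene and exon tables (mm9, Ensembl release 65, per the text deposited with the files) give RPKM in 2 fields. The authors' mm10 tables give expected counts, estimated per gene (totals 1.02728e+08 and 1.38441e+08), and TPM, scaled by the authors over all features. No aligner or quantifier is given in the sources used here. The labels name 2 biological replicates, which share a donor identifier.

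Introns were rebuilt from the deposited exons and matched to junctions by position and strand in Python (3.11.15), using numpy (2.4.6), pandas (2.3.3) and, for binomial intervals, scipy (1.17.1). With 1 group, no test between conditions and no p-value was possible; junctions are not replicates. The ratio script was tested on simulated data: 200 long introns set to -2 (log2) were recovered at -1.9, and 890 unchanged ones at -0.03. Differences between fields were scaled to the total junction reads.

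The junctions, gene lists, measures and first alternatives were chosen with earlier results of these data known. Named junctions are the 15 with the most reads, the 5 longest, the 5 with the lowest and the highest ratio, the 5 with the lowest share at each splice site, the 3 furthest apart between fields in each direction, up to 4 per list and hosts with 3 or more; others were named after their values were seen. Some of these are not reported here. Sequences come from GENCODE M21 transcripts matched by identifier, exon rank, span within 2% and lengths of the flanking exons. First and last exons of a transcript were not compared by length. The wording of positions follows mm9, counted from 1.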

Additional observations from a re-analysis of the deposited data

How the results depend on the processing

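The number of long junctions was 1989 with a limit of 75000 nt and 571 with 150000 nt, by construction. The listed share of 72.0% was 63.3% with at least 5 reads, 80.2% in genes at 1 RPKM or more, 73.6% for introns under 500000 nt, and 68.6 to 69.0% in 1 field alone. The median log2 ratio of -0.53 stayed negative: -0.55 with a pseudocount of 0.1, -0.36 with unlisted introns counted at 0, -0.55 within the transcripts that hold the junction, -0.46 without a minimum of the host median, -0.66 with a minimum of 50 reads, -0.66 against the mean, -0.36 for introns never first, and -0.16 for introns with 90% of the reads at both splice sites, a choice that leaves out hardly read introns by construction, where 29 of 380 lay 2-fold below and 12 above. The median donor share was 100% over annotated junctions only and 98.1% with at least 100 reads, and the acceptor share 100% and 96.2%. Between fields, 60 junctions were 2-fold apart without scaling and 8 with at least 50 reads. In all, 23 of 41 alternatives moved a value, and none reversed the sign of the median ratio; the cause was not tested beyond what each setting does. The limit of 500000 nt and the 90% setting were chosen after seeing the data. No paired analysis was possible because the study has a single group. Exon-level values could not serve as a separate check, since 505 of 1251 junctions had equal values for both flanking exons in both fields.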

Other observations

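Some downstream exons begin with bases that resemble a 5′ splice site, which is known from introns that are removed in steps. The letters GTAAG or GTGAG, searched on the coding strand at the first bases of the downstream exon, were found at 8 of 1151 long junctions (0.695%) and at 35 of 10378 shorter introns of the host genes (0.337%). Both shares rest on few exons. The 8 were in Aff2 (148674 nt, 44 and 59 reads), Ctnna2 (105224 nt, 824 and 1148), Gpc6 (188341 nt, 80 and 72), Kctd16 (271459 nt, 16 and 6), Ntm (288440 nt, 4 and 8), Opcml (238060 nt, 1 and 3), Pde4d (216431 nt, 0 and 3) and Rnf220 (181910 nt, 108 and 123). The heparan sulfate proteoglycan gene Gpc6 has 4 long introns in a row, of 188341 to 260566 nt, with 71 to 121 reads in a field against a median of 86.5 and 89, and 1 of them joins an exon that begins with these letters.
Gpc6 188341 nt: aaccgagtttccaagGTGAGCCCCACCCCT

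Most junctions of at least 100000 nt matched no annotated intron, and most of those rested on 1 read: 249371 of 279941 (89.1%), against 57 of the 1251 matched ones. A smaller set was read often, with 687 unmatched junctions at 20 or more reads in each field. Unannotated junctions into sites of the long introns included 184285 nt in Rbfox1 (249 and 357 reads), 7295 nt in Ptprn2 (160 and 209), 435189 nt in Fgf13 (80 and 117) and 99345 nt in Grik2 (75 and 230). The Fgf13 junction is nearly as long as the unlisted annotated intron of 435188 nt named above.

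The deposited exon table gave a median log2 ratio of 0 between the downstream and the upstream exon of the long junctions in both fields. The downstream exon was higher in both fields at 500 junctions and lower at 197. The same count was not taken for shorter introns, so whether it is particular to long ones was not tested. For long introns first in every transcript the median was 0.20 in both fields, against 0.39 and 0.38 for shorter ones of the host genes. For internal introns it was 0 in both sets. At 40.4% of the junctions both sides had the same value in both fields, so the table does not give a separate count of each exon there.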
